A study of Mus musculus with 4 samples.

Results

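The Frizzled receptors Fzd1 to Fzd10 were examined in brown-like adipocytes made in culture from mouse epididymal fat, comparing Lgr4 mutant with wild-type cultures. Members were chosen by gene name: every probe set whose array annotation names 1 gene, that gene being a Frizzled, was taken. All 10 genes were represented, by 26 probe sets, out of 18193 genes and 34945 probe sets naming 1 gene, and no probe set naming several genes included a Frizzled. Frizzled genes are written below with the probe set of highest mean signal over all arrays, which was the probe set tested.

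The 4 arrays were 2 from cultures of Lgr4 homozygous mutant males and 2 from cultures of wild-type males, all from mice 4 months old. Cells of the stromal vascular fraction (SVF, the preadipocytes, immune and vascular cells left when mature fat cells are removed) were grown with 10% serum and basic fibroblast growth factor. Both genotypes then received the same inducers for 48 h, namely insulin, isobutylmethylxanthine, dexamethasone, the thyroid hormone T3 and troglitazone, a PPAR gamma agonist. Insulin, T3 and troglitazone were kept for another 6 days. The labels call the 2 arrays of a genotype biological replicates. They give neither the kind of Lgr4 mutation nor whether an array stands for 1 animal or a pool, and a p-value below reflects the spread among these 4 arrays only.

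Frizzled proteins are the cell-surface receptors for Wnt ligands. They span the membrane many times, bind Wnt through a cysteine-rich domain outside the cell, and pass the signal to Dishevelled, either with the co-receptors Lrp5 and Lrp6 towards beta-catenin or with Ror and Ryk towards planar polarity and calcium signalling. Lgr4 acts one step away from them: bound by R-spondin, it removes the ubiquitin ligases Rnf43 and Znrf3, which otherwise clear Frizzled protein from the surface, so its known action is on the protein, whereas arrays measure RNA. Wnt/beta-catenin signalling is known to hold back adipocyte differentiation.

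Lgr4 signal, as a log2 value per probe set, was 6.18 and 6.09 on the mutant arrays against 8.65 and 8.20 on the wild-type arrays. The log2 difference, mutant minus wild-type, was -2.29, and -1.10 when all Lgr4 probe sets were averaged. Over the whole series, 13173 genes passed a filter at the 40th percentile of signal (6.13 on the log2 scale), and 29.8% of them passed an adjusted p of 0.05 in limma, a linear model that shares information on spread across genes. Of all tested genes, 18.7% were lower in the mutant and 11.1% higher, so that higher genes were 37.1% of the calls, or 48.5% when arrays were centred on the median of the tested genes. The count of 3924 called genes became 1840 without mutant replicate 1, 2193 without mutant replicate 2 and 6348 without wild-type replicate 2. The cultures were mixtures and differed in their markers. All 9 adipocyte markers on the array were higher in the mutant, with summed linear signals of 115374 and 116790 on the mutant arrays against 41561 and 44024 on the wild-type arrays, and Adipoq, the adipokine adiponectin, differed by 3.22 on the log2 scale. Of the thermogenic markers, 4 of 6 tested rose, Ucp1 by 2.40, and 2 had a mean below the filter. Of those, Cidea read 5.00 and 4.87 in mutant and 5.03 and 5.10 in wild-type cultures, whereas Ppargc1a, a coactivator of thermogenic genes named after its value was seen, read 6.86 and 6.83 in mutant and 4.85 and 5.02 in wild-type cultures (1.91, adjusted p = 4.81e-06 in the fit on all genes). Of 9 pericyte and smooth muscle markers 6 fell and 2 rose (sums of 26748 to 31038 in mutant and 42177 to 42892 in wild-type cultures). Of 13 macrophage markers 5 fell (119329 to 120191 in mutant and 133622 to 147132 in wild-type cultures), and of 8 progenitor markers 3 fell (22109 to 22481 in mutant and 25597 to 26484 in wild-type cultures). Of 8 endothelial markers tested 1 rose and 1 fell (1537 to 1694 in mutant and 1398 to 1481 in wild-type cultures, with Tie1 below the filter), and these calls ended in 6 and 3 of 13 alternatives. Of 4 mesothelial markers tested 4 did not pass (900 to 925 in mutant and 930 to 1044 in wild-type cultures, with Msln and Lrrn4 below the filter). No array signal is at 0, and what part these markers have in the results below was not tested.

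Fzd5, Fzd1 and Fzd2 fell in Lgr4 mutant cultures, and no Frizzled rose. All 10 members passed the signal filter, and 3 of 10 (30%) passed the test, beside 29.8% of all tested genes. All 3 were lower, a direction called for 18.7% of tested genes. Leaving out 1 array at a time left 1 array in a genotype. The log2 difference, mutant minus wild-type, was then -1.16 to -1.01 for Fzd1, -0.98 to -0.55 for Fzd2 and -1.62 to -1.29 for Fzd5. In bulk cultures, fewer cells of a type and less RNA per cell cannot be told apart. At an unadjusted p under 0.05 in limma, 3 of 10 members were lower and 1 was higher, beside 3477 and 2035 of 13173 tested genes. The median log2 difference, mutant minus wild-type, was -0.10 over the members and -0.03 over all tested genes. Both arrays of the mutant lay below both wild-type arrays for 5 members (39.9% of tested genes), above them for 2 (28.9%), and overlapped them for 3, whereas 68.8% of tested genes did not overlap. Of the 3 that fell, 2 were called and at least 2-fold lower, a size reached by 1.21% of tested genes; the 2-fold limit was set with the values known. With all probe sets of a gene averaged, Fzd5 differed by -0.84, Fzd2 by -0.83 and Fzd1 by -0.80, so that 0 members were 2-fold lower.

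Fzd5, a receptor for Wnt5a and other Wnts with known roles in the eye and in intestinal Paneth cells, fell most. Its signal was 7.74 and 7.52 on the mutant arrays and 9.25 and 8.91 on the wild-type arrays. The 2 groups were more than 1 log2 unit apart at their nearest values. Means were 7.63 ± 0.16 in mutant and 9.08 ± 0.24 in wild-type cultures (SD, n = 2 each), a log2 difference of -1.45 (SE 0.13, 95% confidence interval -1.76 to -1.15, limma adjusted p = 0.000138). This is 2.74-fold lower, or 36.5% of the wild-type signal, and only 41 of 13173 tested genes had a lower difference. The averaged value of both Fzd5 probe sets also passed the test (adjusted p = 0.000680).

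Fzd1, a receptor that is known to act in beta-catenin signalling and is expressed by preadipocytes, was next. It read 10.34 and 10.37 in mutant against 11.52 and 11.36 in wild-type cultures, so the mutant pair lay closely together and well below the wild-type pair. Means of 10.35 ± 0.024 in mutant and 11.44 ± 0.11 in wild-type cultures (SD, n = 2 each) gave a difference of -1.08 (SE 0.099, 95% confidence interval -1.31 to -0.86, limma adjusted p = 0.000127), or 2.12-fold lower. It ranked 124 from the lowest difference among the tested genes.

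Fzd2, a close relative of Fzd1 that also binds Wnt5a, had signals of 10.07 and 10.26 on the mutant arrays and 10.71 and 11.14 on the wild-type arrays. Wild-type replicates differed more from each other than mutant replicates did, but the groups were apart. Its means of 10.16 ± 0.14 in mutant and 10.93 ± 0.30 in wild-type cultures (SD, n = 2 each) differed by -0.76 (SE 0.15, 95% confidence interval -1.10 to -0.43, limma adjusted p = 0.00612), or 1.70-fold. The difference ran from -0.55 without wild-type replicate 2 to -0.98 without wild-type replicate 1 and passed the test in both.

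**Figure D1:**
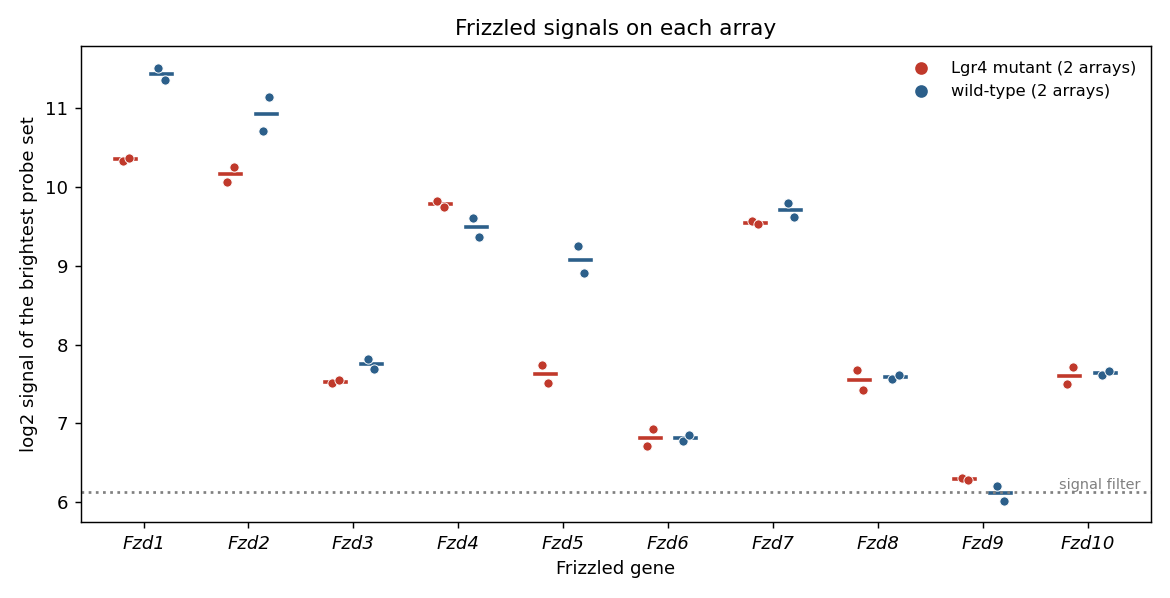
Log2 signal (vertical axis) of the brightest probe set of each Frizzled gene (horizontal axis) on the 2 Lgr4 mutant arrays (red) and the 2 wild-type arrays (blue); points are arrays, bars are means and the dotted line is the signal filter at 6.13. Fzd1, Fzd2 and Fzd5 show clear gaps between genotypes, and heights of different genes are not comparable because each probe set has its own affinity.

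Several probe sets of one gene give repeated readings of its RNA, and they showed the 3 falls unevenly. For Fzd2, all 3 probe sets fell, by 0.76, 0.91 and 0.82 on the log2 scale. The third read 8.45 and 8.62 in mutant against 9.35 and 9.35 in wild-type cultures (limma over all probe sets, adjusted p = 0.00209). The second carries the suffix _s_at, which marks probes that can match more than 1 transcript. For Fzd1, the dimmer probe set read 6.49 and 6.74 in mutant against 7.00 and 7.26 in wild-type cultures and also fell (-0.52, adjusted p = 0.0369). For Fzd5, the second probe set lay below the filter at 5.34 and 5.29 in mutant against 5.46 and 5.62 in wild-type cultures, with a difference of -0.23 that missed the threshold (adjusted p = 0.187), so that the Fzd5 call rests on 1 probe set.

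Over all 26 Frizzled probe sets, of which 18 lay above the filter, 7 (26.9%) were lower and 0 higher in the fit over all probe sets. In that fit 9.56% of all probe sets were lower, 5.96% higher and 15.5% called in either direction, a background that also holds the many probe sets without signal. A fit on the 23023 probe sets above the filter called 24.3% of them, with 15.5% lower. The Frizzled probe sets were not recounted in it. The seventh lower Frizzled probe set belonged to Fzd6 and is described below. Probe sets of 1 gene share their RNA and are not replicates of a genotype.

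**Figure D2:**
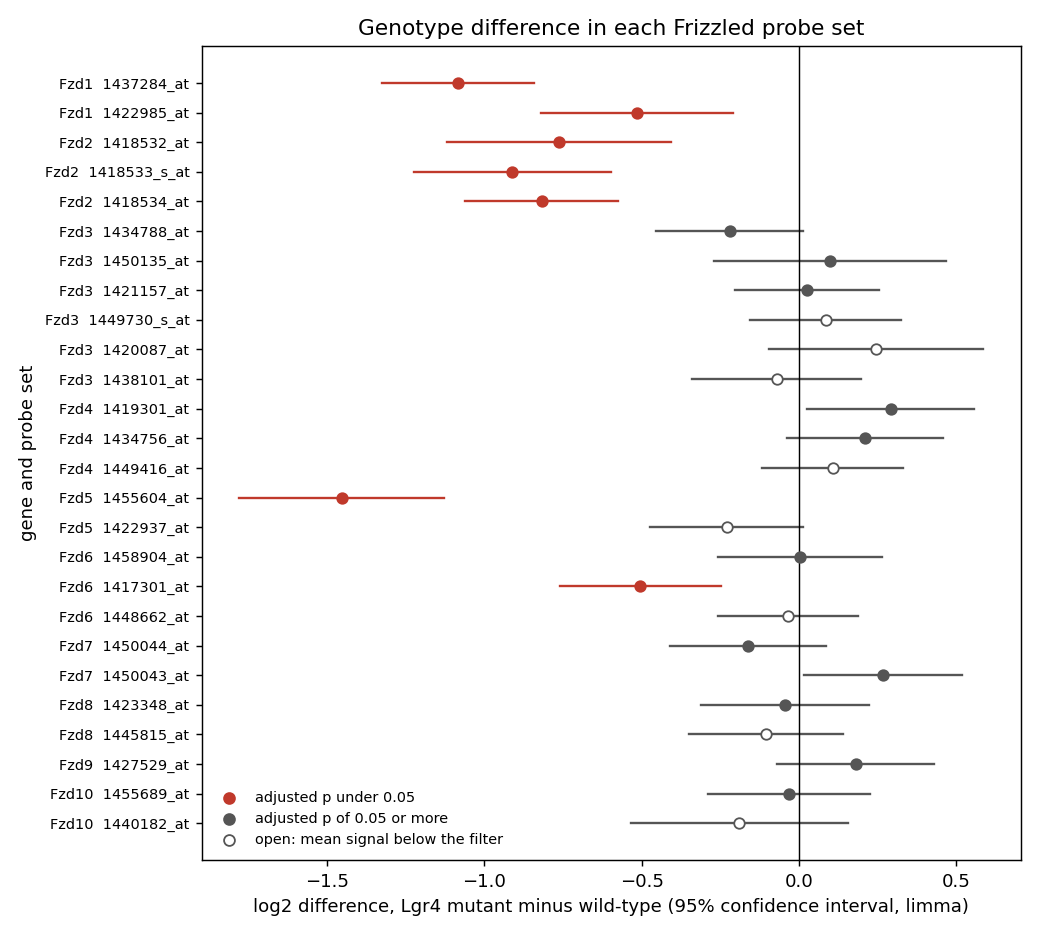
Log2 difference, Lgr4 mutant minus wild-type (horizontal axis), with its 95% confidence interval for each of the 26 Frizzled probe sets, ordered by gene and then by signal; red marks an adjusted p under 0.05 and open circles a mean signal below the filter. All 7 red probe sets lie to the left of 0, and they belong to Fzd1, Fzd2, Fzd5 and Fzd6.

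The start-site sequences of members that fell and of members that did not pass are shown to set their base composition side by side. RefSeq promoters (GRCm38.p6, 250 bases before to 50 after the start, gene strand, 5′ to 3′) were matched by symbol for 6 members: Fzd1, Fzd4, Fzd5, Fzd7, Fzd9 and Fzd10. Capitals mark 3 motifs: the GC box, GGGCGG, the box named after its letters, CCAAT, and the TATA box, TATAAA. Each was searched on both strands, and no base fell in matches of 2 different motifs. Fzd5 (chr1:64737701-64738000, minus strand) and Fzd1 (chr5:4758167-4758466, minus strand) fell, and Fzd7 (chr1:59481897-59482196, plus strand) and Fzd4 (chr7:89404116-89404415, plus strand) did not pass.
Fzd5: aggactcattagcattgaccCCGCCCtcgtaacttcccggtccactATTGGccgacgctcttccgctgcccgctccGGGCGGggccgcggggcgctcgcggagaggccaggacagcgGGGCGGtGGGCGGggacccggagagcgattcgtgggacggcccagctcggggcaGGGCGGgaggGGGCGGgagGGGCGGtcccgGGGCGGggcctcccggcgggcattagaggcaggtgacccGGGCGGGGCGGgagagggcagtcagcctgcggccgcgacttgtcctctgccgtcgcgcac
Fzd1: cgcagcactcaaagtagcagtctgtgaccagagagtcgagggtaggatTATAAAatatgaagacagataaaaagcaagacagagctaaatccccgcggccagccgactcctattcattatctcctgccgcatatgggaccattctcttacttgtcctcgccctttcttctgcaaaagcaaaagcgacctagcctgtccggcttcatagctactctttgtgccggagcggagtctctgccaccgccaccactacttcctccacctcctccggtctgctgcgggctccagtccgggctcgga
Fzd7: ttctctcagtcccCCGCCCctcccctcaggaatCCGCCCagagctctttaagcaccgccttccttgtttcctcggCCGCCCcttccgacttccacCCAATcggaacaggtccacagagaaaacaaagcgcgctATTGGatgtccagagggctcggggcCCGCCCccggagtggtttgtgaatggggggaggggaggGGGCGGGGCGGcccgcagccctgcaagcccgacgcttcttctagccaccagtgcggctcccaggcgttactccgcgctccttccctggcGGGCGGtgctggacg
Fzd4: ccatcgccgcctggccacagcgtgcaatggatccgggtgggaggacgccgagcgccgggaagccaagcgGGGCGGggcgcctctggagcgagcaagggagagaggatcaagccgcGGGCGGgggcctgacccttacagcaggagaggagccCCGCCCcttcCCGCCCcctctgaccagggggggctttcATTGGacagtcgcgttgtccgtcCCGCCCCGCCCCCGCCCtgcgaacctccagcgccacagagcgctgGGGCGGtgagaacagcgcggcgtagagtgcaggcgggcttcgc

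No promoter was matched for Fzd2, which also fell. The promoters of the other 2 falling members were unlike each other. Fzd5 held 10 GC boxes and 1 CCAAT box in 75.7% G+C, whereas Fzd1 held neither and had 1 match to the TATA box letters in 54.0% G+C. That match lies near the 5′ end of the window, far upstream of the start. Motifs were counted at any position in a window. Members that did not pass varied as well. Fzd4 held 8 GC boxes and Fzd7 held 7, whereas Fzd9 and Fzd10 held 1 each and no CCAAT box, in 78.0% and 77.7% G+C. Of 32851 RefSeq promoters of this length, 35.7% held a GC box, 37.4% a CCAAT box and 13.6% a TATA box, and their median was 52.7% G+C. The TCF/LEF motif CTTTGAT, held by 3.73% of promoters, and the nuclear receptor half-site AGGTCA, held by 16.3%, were found in none of the 6 Frizzled windows, which says only that these letters are not in these 300 bases.

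Fzd7, which with Fzd1 and Fzd2 forms one branch of the family and is known from intestinal stem cells, did not pass, and its probe sets disagreed. The brighter read 9.56 and 9.53 in mutant against 9.80 and 9.61 in wild-type cultures, a difference of -0.16 (95% confidence interval -0.40 to 0.07, limma adjusted p = 0.262). The second read 7.26 and 7.17 in mutant against 6.86 and 7.04 in wild-type cultures, a difference of 0.27 in the other direction (adjusted p = 0.145 over all probe sets). Averaged, they gave 0.052. The interval of Fzd7 lies above that of Fzd1 and of Fzd2, but the difference between members was not tested.

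Fzd8, the closest relative of Fzd5 and a receptor known from kidney and bone, had overlapping groups. It read 7.67 and 7.43 on the mutant arrays and 7.57 and 7.62 on the wild-type arrays, a difference of -0.04 (95% confidence interval -0.30 to 0.21, limma adjusted p = 0.797). The interval excludes a fall of the size of Fzd5, although the 2 genes were not tested against each other. The sign of the Fzd8 difference turned to 0.011 when arrays were centred on the median of the tested genes.

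Fzd4, the receptor for Norrin in retinal vessels, showed the highest mutant values relative to wild-type of the family without passing the test. Its signals of 9.82 and 9.75 in mutant cultures lay above the 9.61 and 9.37 in wild-type cultures, and the same order held in its other probe sets. The difference was 0.29 (SE 0.11, 95% confidence interval 0.04 to 0.54, limma adjusted p = 0.0772), or 1.22-fold. A second quantile normalization took it past the threshold (0.37, adjusted p = 0.0349), as did leaving out wild-type replicate 1 (0.41, adjusted p = 0.00700).

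Fzd9 and Fzd10 stand near Fzd4 in the family. Fzd9, known from bone formation, lay nearest to the signal filter, with signals of 6.31 and 6.28 in mutant against 6.21 and 6.02 in wild-type cultures (0.18, adjusted p = 0.219). Its 1 probe set lay close enough to the filter of 6.13 that wild-type replicate 2 lay below it. Fzd10, with 7.49 and 7.71 in mutant against 7.61 and 7.66 in wild-type cultures, had overlapping groups (-0.03, 95% confidence interval -0.28 to 0.21, adjusted p = 0.841).

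Fzd3 and Fzd6, receptors known for planar polarity in axon tracts and hair follicles, did not pass by their brightest probe sets. Fzd3 read 7.51 and 7.55 in mutant against 7.81 and 7.69 in wild-type cultures, with the groups apart (-0.22, SE 0.096, adjusted p = 0.120). Its other 5 probe sets ran from -0.07 to 0.25 with overlapping groups, and the mean of all 6 gave 0.027, so the direction depends on the probe set. Fzd6 read 6.71 and 6.93 in mutant against 6.77 and 6.86 in wild-type cultures by its brightest probe set (0.00, 95% confidence interval -0.24 to 0.25, adjusted p = 0.981). A second Fzd6 probe set read 6.22 and 6.08 in mutant against 6.74 and 6.57 in wild-type cultures and fell (-0.50, adjusted p = 0.0208 over all probe sets). The third lay below the filter with a difference of -0.04, and the mean of the 3 differed by -0.18 and did not pass (adjusted p = 0.137).

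**Figure D3:**
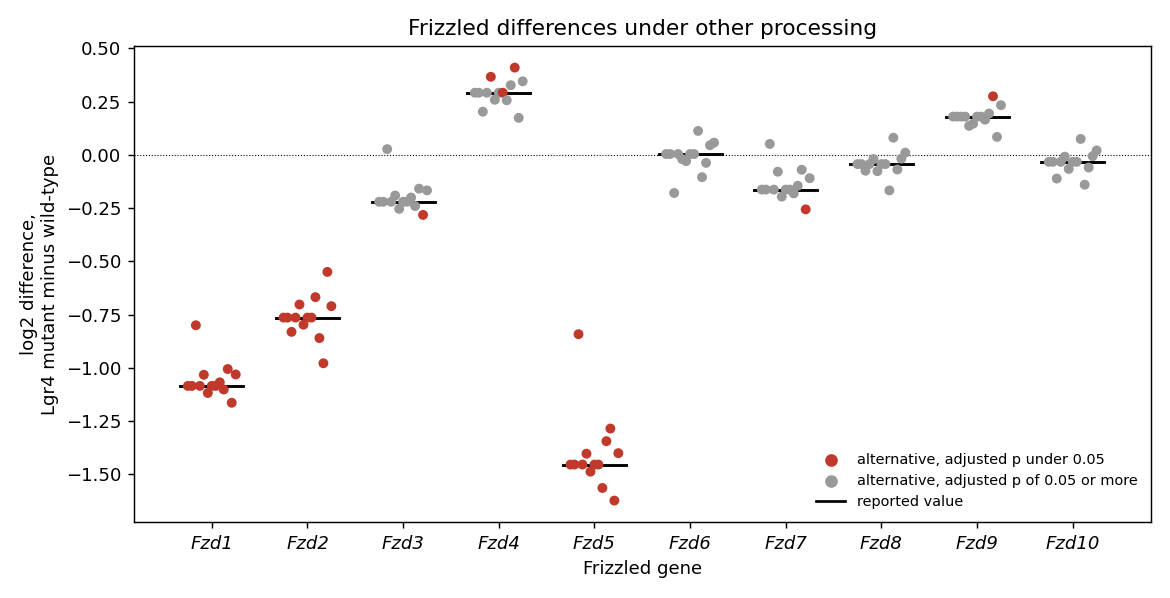
Log2 difference, Lgr4 mutant minus wild-type (vertical axis), of each Frizzled gene (horizontal axis) as reported (black bar) and under 13 other processing choices (points, red where the adjusted p was under 0.05). Fzd1, Fzd2 and Fzd5 stay below 0 and red at every point, with Fzd5 moving from -1.45 to -0.84 when its probe sets were averaged, while Fzd6, Fzd8 and Fzd10 scatter around 0.

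Over the 4 arrays, the pattern nearest to that of Fzd5 was that of Abi3bp, which encodes an extracellular matrix protein. Likeness was the Euclidean distance between log2 values centred on each gene's mean, and it was 0.020 for Abi3bp, which read 8.03 and 7.80 in mutant against 9.56 and 9.22 in wild-type cultures. Eya4, a transcriptional coactivator (0.13), and Vegfc, a lymphatic growth factor (0.17), followed. With 4 arrays in 2 groups, such a distance mostly reflects the size of the genotype difference.

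Around the receptors, 99 further Wnt pathway genes were listed by role, of which 98 were on the array and 78 tested. Of these, 6 rose, 18 fell and 54 did not pass, so 30.8% were called beside 29.8% of all tested genes. In roles with several genes, called shares were 60% for co-receptors, 54.5% for target genes, 50% for secreted antagonists and 37.5% for turnover. They were 30.8% for planar polarity and similar relays, 25% for trafficking, 9.09% for ligands and 0% from Dishevelled to the TCF factors. Shares lower, in the same order, were 50%, 36.4%, 33.3%, 25%, 30.8%, 0%, 9.09% and 0%, beside 18.7% of all tested genes. Lgr4, the mutated gene itself, is counted among the falls of the turnover role and of the whole list. No share was computed without it. The number of pathway genes that rose changed when 1 array was left out, and so did the number over all tested genes.

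Ligands were mostly near or below the filter. Of 20 listed, 11 were tested, 1 fell, none rose (2 higher at an unadjusted p under 0.05 in limma) and 10 did not pass, with a median difference of 0.19. The one that fell was Wnt9a, which read 7.19 and 7.32 in mutant against 8.07 and 7.84 in wild-type cultures (-0.70, adjusted p = 0.00258); averaged over its probe sets it did not pass (-0.26, adjusted p = 0.0655). Wnt2, a ligand named after its value was seen, lay below the filter in mean signal and read 5.07 and 5.39 in mutant against 6.20 and 6.28 in wild-type cultures (-1.01, adjusted p = 0.000645 in the fit on all genes). Wnt5a, a ligand of both Fzd2 and Fzd5, read 7.67 and 7.50 in mutant against 7.45 and 7.17 in wild-type cultures and did not pass (0.28, adjusted p = 0.120).

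Of 10 co-receptors tested 5 fell and 1 rose, with a median difference of -0.36. Those lower were 50% of the list, beside 18.7% of all tested genes, and those called either way 60%, beside 29.8%. Ror2, a tyrosine kinase receptor for Wnt5a, read 6.58 and 6.79 in mutant against 8.11 and 7.79 in wild-type cultures (-1.27, adjusted p = 0.000240), and -0.76 when its probe sets were averaged. Reck, which works with Adgra2 to present Wnt7 to Frizzled, read 9.34 and 9.35 in mutant against 10.21 and 10.05 in wild-type cultures (-0.78, adjusted p = 0.000747). Tspan12, a tetraspanin that assists Norrin signalling through Fzd4, went the other way. It read 9.74 and 9.82 in mutant against 7.92 and 7.43 in wild-type cultures (2.10, SE 0.15, limma adjusted p = 3.40e-05), or 4.30-fold higher. The Tspan12 probe set carries the suffix _s_at. Averaging probe sets returned the same 2.10, as it does for a gene with 1 probe set, so it gave no second reading. Norrin itself (Ndp) lay below the filter on every array at 4.88 and 4.73 in mutant against 4.76 and 4.81 in wild-type cultures. Lrp5 and Lrp6 did not pass (0.30 and 0.18).

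Genes that govern Frizzled protein at the surface moved both ways. In the turnover role 1 of 8 rose and 2 fell: Rspo1, a ligand of Lgr4, rose (1.11), and Lgr4 (-2.29, and -1.10 over all its probe sets) and its relative Lgr5 (-0.60) fell, Lgr5 with mutant signals of 5.92 and 5.88 below the filter and no call when its probe sets were averaged (-0.27, adjusted p = 0.0618). The ubiquitin ligase Znrf3 did not pass (-0.13) and Rnf43 lay below the filter. In the trafficking role 1 of 4 rose, Tmed5, a cargo receptor of the early secretory pathway, at 11.81 and 11.85 in mutant against 10.92 and 10.74 in wild-type cultures (1.00, adjusted p = 0.000232, and 0.64 over all its probe sets). Smo, the Hedgehog transducer of the same receptor class, read 9.67 and 9.55 in mutant against 9.67 and 9.73 in wild-type cultures (-0.08) and did not pass.

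Among secreted antagonists, 1 of 6 tested rose and 2 fell. Dkk3 fell by 0.77 and Sfrp1, which carries a Frizzled-like domain, by 0.46, whereas Sfrp2 rose by 0.38. In 4 others the mean lay below the filter. Of these Dkk2, named after its value was seen, read 5.61 and 6.01 in mutant against 4.78 and 4.62 in wild-type cultures. Its difference was 1.11 (adjusted p = 0.000789 in the limma fit on all genes), and the rest did not pass in that fit. Over all its probe sets Sfrp1 differed by -0.76 (adjusted p = 0.00228). Leaving out mutant replicate 1 ended the calls of Sfrp1 (adjusted p = 0.246) and Sfrp2 (adjusted p = 0.191). Omitting mutant replicate 2 ended that of Sfrp2 too (adjusted p = 0.113). Of the 14 genes from Dishevelled to the TCF factors, 0 passed in limma, with 3 higher and 1 lower at an unadjusted p under 0.05, and their differences ran from -0.26 to 0.34. In the role of planar polarity and other relays independent of beta-catenin, 4 of 13 fell: Nfatc1 (-0.82), a calcium-dependent transcription factor, its relative Nfatc2 (-0.48), Prickle1 (-0.60), a core planar polarity protein, and the formin Daam1 (-0.40), the last named after its value was seen and not called without mutant replicate 1 (adjusted p = 0.171) or mutant replicate 2 (adjusted p = 0.118). Averaged over their probe sets, Nfatc1 differed by -0.31 and passed, and Nfatc2 (-0.09) and Prickle1 (-0.04) did not; Nfatc2 also did not pass without mutant replicate 1 (adjusted p = 0.0928). Of 11 Wnt target genes tested 2 rose and 4 fell, the falls led by Ccn5 (-1.86), Nrcam (-1.81, and -0.71 over all its probe sets) and Nkd2 (-1.67, and -0.83 over all its probe sets). The 2 that rose, named after their values were seen, were Apcdd1, a membrane-bound Wnt inhibitor, and Axin2, a feedback inhibitor of beta-catenin. Apcdd1 read 10.57 and 10.51 in mutant against 9.05 and 8.87 in wild-type cultures (1.58, adjusted p = 1.72e-05). Axin2 read 8.57 and 8.58 in mutant against 8.17 and 8.33 in wild-type cultures (0.32, adjusted p = 0.0410), and its call ended in 7 of 13 alternatives, with adjusted p up to 0.254.

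**Figure D4:**
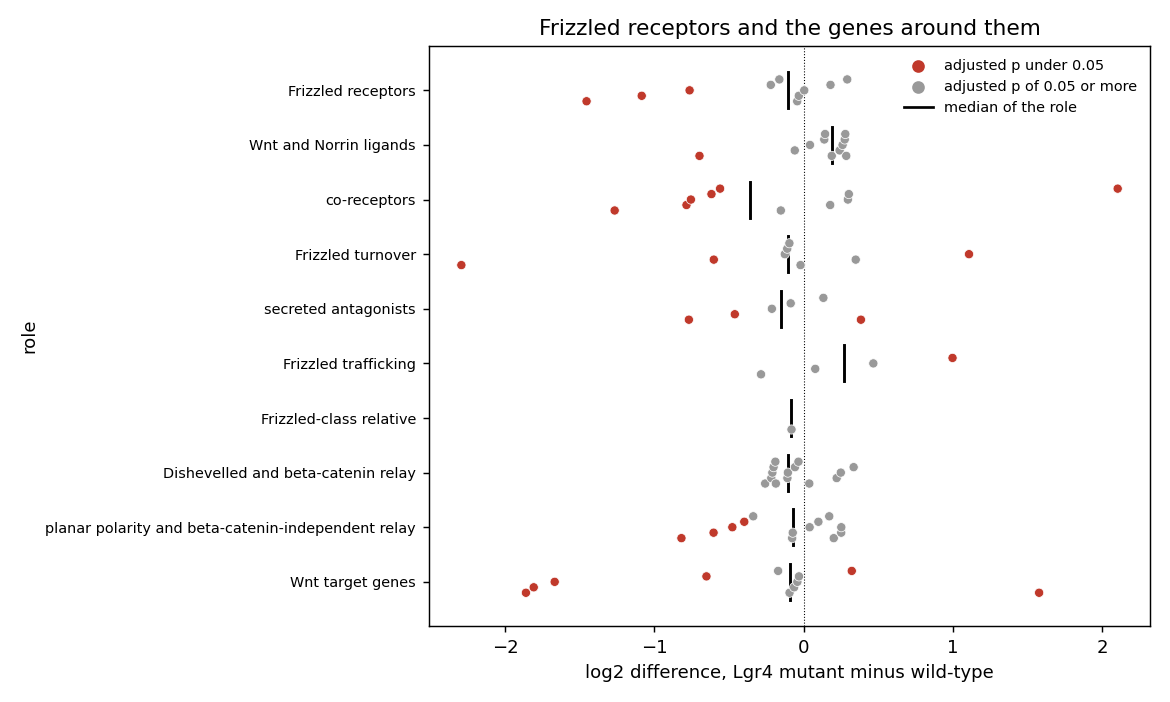
Log2 difference, Lgr4 mutant minus wild-type (horizontal axis), of the 10 Frizzled genes and of the tested Wnt pathway genes by role (rows); points are genes, red where the adjusted p was under 0.05, and black bars are medians. The Frizzled row has 3 red points, all left of 0, the co-receptor row has 5 red points to the left and Tspan12 at 2.10 to the right, and the Dishevelled and beta-catenin row has no red point.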

How the data were processed

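Expression was measured on a 3' array in 2 Lgr4 mutant and 2 wild-type cultures, labelled as biological replicates. The authors deposited one log2 signal for each probe set, made with Partek 6.6 and RMA, per the submitters' processing notes. RMA compresses differences near background and equalises the arrays, so differences in total RNA are lost. Values between 2.86 and 15.15 show the log scale. The RMA variant is not given in the sources used here.

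Of 45101 probe sets, 64 controls, 932 naming several genes and 9160 naming none were left out. Symbols were updated through RefSeq (GRCm38.p6), with 204 probe sets unmatched. The brightest probe set of each gene was tested if its mean exceeded 6.13. Genes below that took values from the fit on all genes. The test between genotypes was limma 3.58.1 (R 4.3.3), with Benjamini-Hochberg adjustment over all 13173 tested genes, and a separate fit took every probe set. The 2 residual degrees of freedom were joined by 6.21 prior ones, and the script was tested on simulated data. An exact permutation test of 2 against 2 arrays cannot go below p = 0.333, so none was run. The number of arrays limits the precision.

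Members and lists were chosen with earlier results of these data known. By rule, named genes were all members, Lgr4, Smo, Adipoq and Ucp1, the 3 largest called differences per pathway role, and the 3 genes nearest to the most changed member. Outside this rule, Wnt5a, Ndp, Lrp5, Lrp6, Znrf3, Rnf43, Cidea, Tie1, Msln and Lrrn4 were also named from the lists. Ppargc1a, Wnt2, Dkk2, Daam1, Apcdd1 and Axin2 were named after their values were seen. The rule's 2 largest called differences per marker list were computed but are given only as list counts, apart from the lost calls of Cdh5 and Vwf. Alternatives were other filters, probe set choices, scalings, an intensity trend, a replicate block and each array left out; centring on the tested genes was added after the data were seen. A planned comparison of Frizzled protein sequences was not made.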

Additional observations from a re-analysis of the deposited data

How the results depend on the processing

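Under 13 alternatives, Fzd1 (-1.16 to -0.80), Fzd2 (-0.98 to -0.55) and Fzd5 (-1.62 to -0.84) remained lower and past the test in each. Without wild-type replicate 2, which leaves 1 wild-type array, Fzd3 differed by -0.28 and Fzd7 by -0.26. Leaving out 1 array gave Fzd3 -0.28 to -0.16, Fzd4 0.17 to 0.41, Fzd6 -0.10 to 0.11, Fzd7 -0.26 to -0.070, Fzd8 -0.17 to 0.081, Fzd9 0.085 to 0.28 and Fzd10 -0.14 to 0.075, with 3 to 5 members lower and 0 to 2 higher. Without wild-type replicate 1, Fzd4 differed by 0.41 and Fzd9 by 0.28. Fzd4 passed as higher after a second quantile normalization (0.37) and with the replicate block (0.29). The block fit gave every Frizzled member the same SE (0.117), so its calls do not reflect the spread of each gene. Averaging probe sets turned Fzd3 (0.027), Fzd6 (-0.18) and Fzd7 (0.052). Fzd6 also turned with the second quantile normalization (-0.020) and with centring on the array median (-0.029), and centring on the tested genes turned Fzd8 (0.011) and Fzd10 (0.021). The cause of these turns was not tested. Leaving out 1 array gave 1840 to 6348 called genes, 789 to 2635 of them higher and 1051 to 3713 lower, and 4 to 18 Wnt pathway genes higher. Those higher were 10 after the second quantile normalization, 11 after centring on the tested genes and 14 with the replicate block. The replicate numbers do not pair the samples by the labels. Deviations of same-numbered arrays correlated at 0.16 over the tested genes, and the block gave 4879 calls. For the other 37 genes followed, 453 of 481 values kept direction and side of the threshold, 28 lost the call and 0 reversed; Axin2 lost it in 7 alternatives, Cdh5 in 6, Daam1 in 4 and Vwf in 3. Other filters, the fit on every probe set, the intensity trend and the replicate block leave a gene's difference unchanged. No reversal was possible in them, for the Frizzled members as for the other genes. Leaving out 1 array likewise cannot reverse a gene whose groups do not overlap. Fzd9, the second Fzd6 probe set and the dimmest probe sets of Fzd3, Fzd4, Fzd5, Fzd6, Fzd8 and Fzd10 lie near or below the filter, where RMA compresses differences.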
